A study of Homo sapiens with 11 samples.

Results

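The D-type cyclin genes CCND1, CCND2 and CCND3 and 7 genes for inhibitors of cyclin-dependent kinases (CDKs) were examined in human cardiomyocytes during long-term culture. They were chosen by name, with earlier results of these data known, and are 10 of the 19990 genes in the count table. All 10 were present and passed the filter on low counts. The starting cells were WTC11 (an established line of human induced pluripotent stem cells), used at passage 63. Wells of a single differentiation, directed with CHIR99021 and then IWP2 and kept in B27 medium with insulin, were collected at Day 30 (4 wells), Day 60 (3 wells) and Day 113 (4 wells), and their poly(A) RNA was sequenced. All 3 groups share the line, the passage and the differentiation, so the p-values below measure the spread between wells only, and the day cannot be told apart from the collection.

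A D-type cyclin binds CDK4 or CDK6, and the active kinase phosphorylates the retinoblastoma protein RB1, which frees E2F transcription factors and lets a cell leave G1 for S phase. INK4 proteins (genes CDKN2A to CDKN2D) bind CDK4 and CDK6 and keep them from the cyclin. CIP/KIP proteins (CDKN1A, CDKN1B and CDKN1C) bind cyclin-CDK complexes more widely and block CDK2 with its E- and A-type cyclins. Heart muscle cells divide before birth and largely leave the cell cycle after it, and these genes are among those studied for that exit.

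Values are counts per 1000000 counts (CPM) scaled by TMM, a factor for library composition. A gene is said to rise, fall or change where edgeR's quasi-likelihood test gave a Benjamini-Hochberg adjusted p under 0.05 over all 19990 genes, and every adjusted p below is of that kind. Libraries held 24.1 to 34.5 M counts (M, units of 1000000), and the scarcest member count in a library was 37. Of 9 cardiomyocyte markers all were detected, with a summed level of 30295 to 41733 CPM at Day 30, 37250 to 42198 at Day 60 and 31979 to 35757 at Day 113. Other cell types were also present in the RNA. Summed CPM of 9 endoderm and epithelial markers was 587 to 1511, 70.9 to 83.0 and 29.2 to 62.0 at the 3 days, that of 9 fibroblast markers 3357 to 7713, 2074 to 3575 and 5454 to 13100, and that of 9 endothelial markers 77.5 to 111, 49.7 to 80.4 and 226 to 873. None of these 27 markers was at 0 throughout a day. In bulk RNA, fewer cells of a type and less RNA per cell cannot be told apart.

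When Day 113 was set against Day 30, 6 of the 10 genes changed, against 34.5% of all genes. CCND3 and CDKN2C rose (2 of 10, against 17.3% of all genes), and CCND2, CDKN1A, CDKN1C and CDKN2B fell (4 of 10, against 17.2%). Between Day 30 and Day 60, 5 of 10 changed, against 10.3% of all genes, and 4 of these 5 belonged to the INK4 family. Of them 3 rose and 2 fell, against 4.39% and 5.91% of all genes. Between Day 60 and Day 113, 5 of 10 changed, against 24% of all genes, with 1 higher and 4 lower, against 12.9% and 11.1%. In each comparison the genes that passed were also those whose wells did not overlap between the days, namely 5, 5 and 6 of 10 (Day 60 with Day 30, Day 113 with Day 60, Day 113 with Day 30). Wells did not overlap for 24.8%, 30.6% and 35.1% of all genes, split into 10.7%, 16.2% and 17.1% higher and 14.1%, 14.4% and 18% lower. The joint test over the 3 days called 8 of 10, against 37.1% of all genes. The change after Day 60 differed from the change before it for 4 of 10, against 9.34% of all genes, with 2 above 0 (4.97% of all genes) and 2 below (4.38%). These are whole changes over intervals of unequal length, the later being longer, and not changes per day. The median log2 fold change of the 10 genes was 0.01, -0.17 and -0.06 in the comparisons of Day 60 with Day 30, Day 113 with Day 60 and Day 113 with Day 30, beside -0.01, 0.00 and -0.02 for all genes. The genes moved in both directions within each comparison, so these medians say little of any single one. Because the genes were chosen with earlier results known, their counts beside the shares of all genes are descriptions only.

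**Figure D1:**
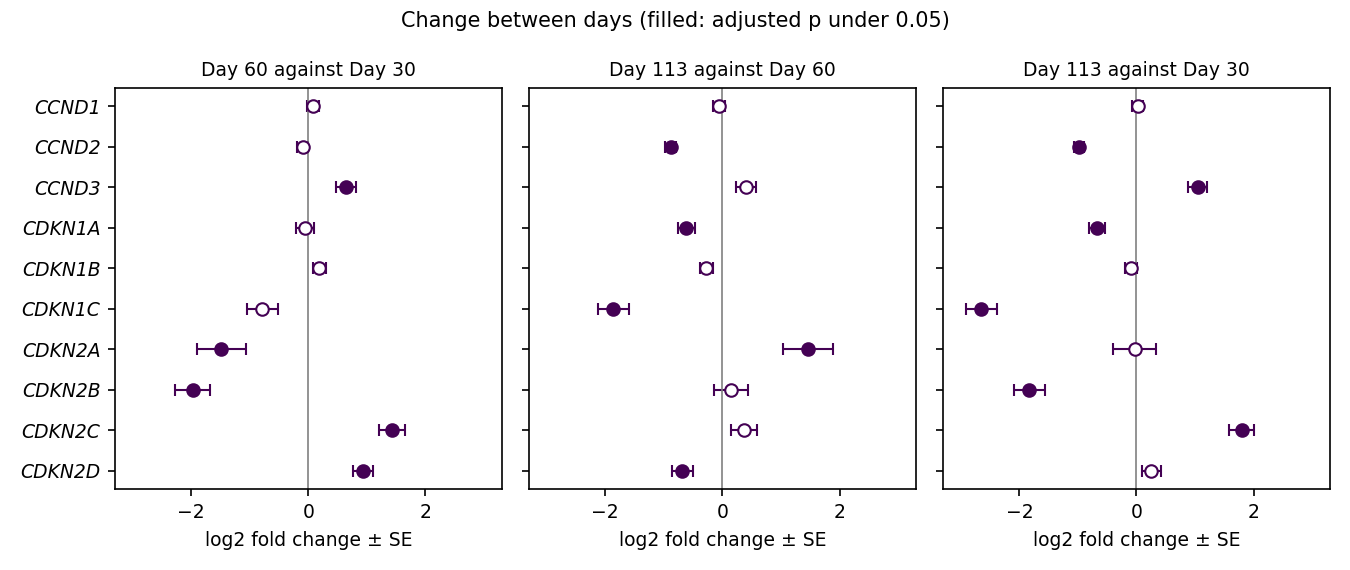
Log2 fold change (x axis, dot) with its standard error (bar) for each of the 10 genes (y axis) in the 3 comparisons of days; filled dots passed an adjusted p of 0.05. CDKN1C has the lowest value from Day 30 to Day 113 (-2.65) and CDKN2C the highest (1.79), while CCND1 lies near 0 in all 3 panels.

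The 3 D-type cyclin genes followed 3 different courses. CCND2 (chromosome 12, 4273762 to 4305353, plus strand, GRCh38) was at 364, 332, 321 and 306 CPM in the Day 30 wells, at 319.7, 305 and 302.5 CPM at Day 60 and at 157, 181, 172 and 161 CPM at Day 113. The Day 113 wells all lay below every earlier well, and the first 2 days overlapped. CCND2 did not pass the test by Day 60 (log2 fold change -0.10 ± 0.09, SE) and then fell by 0.88 ± 0.09 (SE) on the log2 scale (adjusted p 1.4e-05). Over the whole course it fell by 0.98 ± 0.09 (SE; adjusted p 5.2e-07), to 0.507 of its Day 30 level. The second change was lower than the first by a tested difference of -0.78 ± 0.16 (SE; adjusted p 0.0069). The decrease that passed was thus in the later interval, which is also the longer, and changes per day were not compared.

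CCND3 (chromosome 6, 41934933 to 42050035, minus strand) went the opposite way. Its wells held 20.8, 27.8, 20.9 and 20.3 CPM at Day 30, 38.4, 39.5 and 27.9 CPM at Day 60 and 38.4, 60.1, 40.2 and 47.2 CPM at Day 113. Day 60 replicate 3, at 27.9 CPM, was barely above the highest Day 30 well, and no Day 30 well reached any later one. From Day 30 to Day 113 CCND3 rose by 1.05 ± 0.16 (SE), 2.07-fold (adjusted p 1.2e-04). The first step, 0.65 ± 0.17 (SE; adjusted p 0.022), passed, and the second, 0.40 ± 0.17 (SE; adjusted p 0.11), did not. The call by Day 60 depended on the wells kept. It was lost without Day 30 replicate 1, 3 or 4 or Day 60 replicate 1 or 2 (adjusted p 0.065, 0.066, 0.0603, 0.083 and 0.090; 0.0042 to 0.090 over all alternatives). The log2 fold change in those fits was 0.56 to 0.62. The call was kept without Day 30 replicate 2, the highest well of its day.

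CCND1 (chromosome 11, 69641156 to 69654474, plus strand) was at 217, 216, 228 and 221 CPM at Day 30, 230.3, 252 and 217 CPM at Day 60 and 252, 231, 218 and 192 CPM at Day 113. The wells of all 3 days overlapped. Its log2 fold change from Day 30 to Day 113 was 0.02 ± 0.09 (SE; adjusted p 0.90), and the joint test over the 3 days gave an adjusted p of 0.80. Some CCND1 and CCND2 exons lie opposite exons of LTO1 and CCND2-AS1, over 10.3% and 1.76% of their exon bases, and whether counting used strand is not given in the sources used here. Those partners held 4062 and 1888 counts in all, against 73741 for CCND1 and 86358 for CCND2. CCND2 also shares 13.8% of its exon bases with AC008012.1 on the same strand, where a strand setting cannot separate them. AC008012.1 is not among the genes counted, and the effect of this overlap on CCND2 values was not tested.

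**Figure D2:**
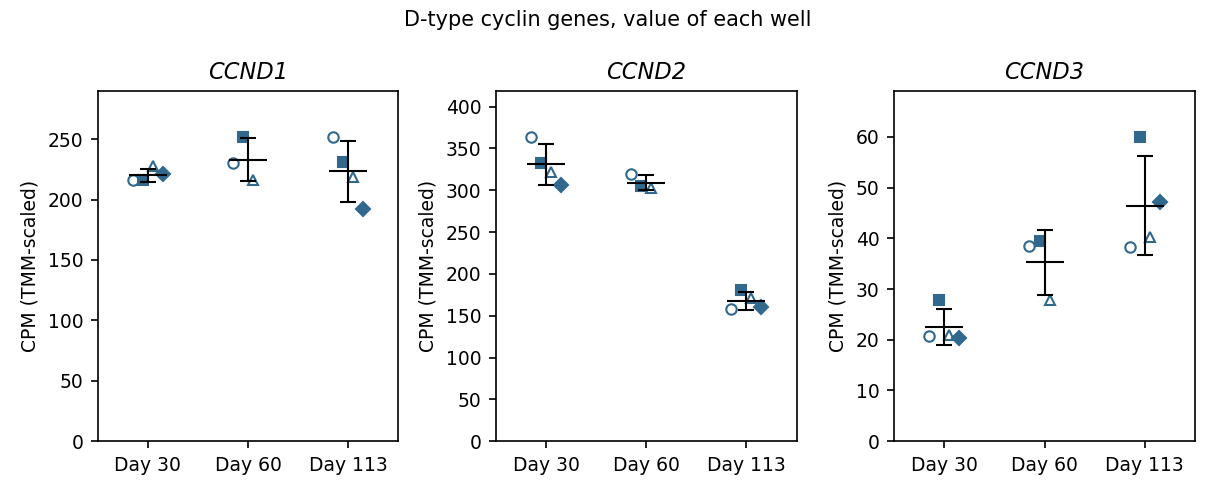
CPM of the 3 D-type cyclin genes (y axis, starting at 0, 1 panel per gene) by day (x axis); each symbol is a well, with 1 symbol shape per replicate number, and the black bar is the mean with its SD. CCND1 stays between 192 and 252 CPM, CCND2 drops to 157 to 181 CPM at Day 113, and CCND3 climbs from a mean of 22.4 to 46.5 CPM.

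To set the 3 genes side by side, CPM was divided by the exon length of each gene in GENCODE 29 (in kilobases, kb). At Day 30 CCND1 and CCND2 stood at 45.6 ± 1.13 and 46.2 ± 3.43 CPM per kb (SD, n = 4), with overlapping wells, and CCND3 at 3.87 ± 0.612. At Day 113 they stood at 46.2 ± 5.18, 23.4 ± 1.51 and 8.01 ± 1.69 CPM per kb (SD, n = 4). The summed level of the family was 92.0 to 99.3 CPM per kb at Day 30, 91.9 to 102 at Day 60 and 70.4 to 83.5 at Day 113. CCND2 made up 48.3% ± 2.15 of that sum at Day 30 (SD, n = 4), 44.4% ± 2.13 at Day 60 (SD, n = 3) and 30.3% ± 2.12 at Day 113 (SD, n = 4). CCND3 made up 4.04% ± 0.635, 6.20% ± 0.850 and 10.3% ± 1.99 at the same days, and stayed the scarcest of the 3. Within each library the counts of CCND2 were 1.38 to 1.68 times those of CCND1 at Day 30. The range was 1.21 to 1.40 times at Day 60 and 0.62 to 0.84 times at Day 113, so their order in counts turned over between those days. Per kb, CCND1 (48.2 ± 3.71, SD, n = 3) was already above CCND2 (43.2 ± 1.29) at Day 60, with no overlap of wells. Shares and values per kb depend on which transcripts are used, which gene counts do not show. Those of CCND2 also include the exon bases shared with AC008012.1.

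**Figure D3:**
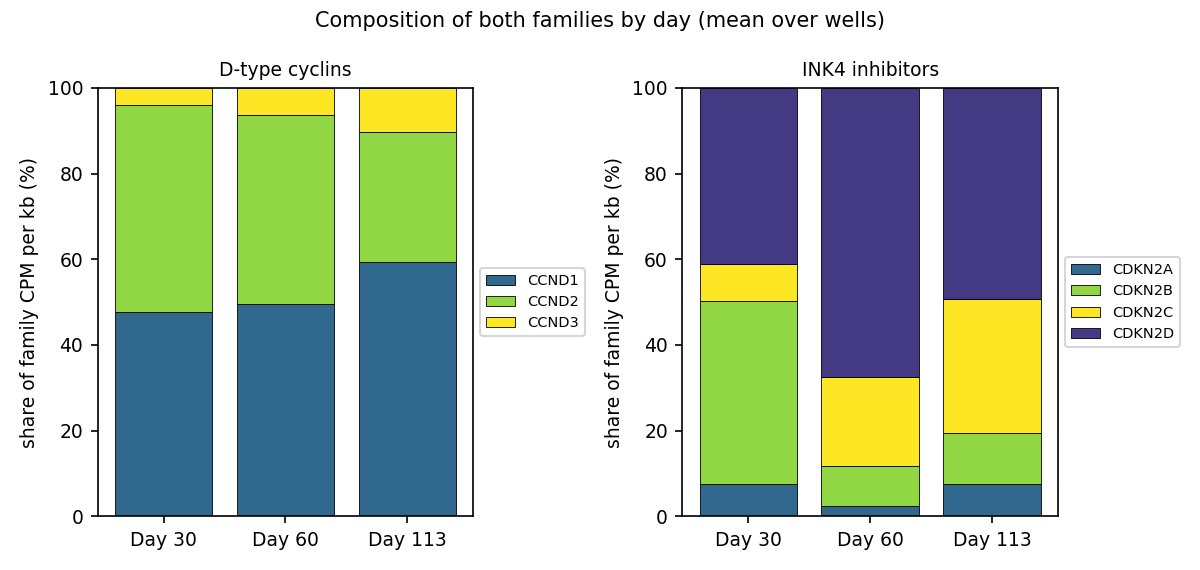
Mean share (y axis, percent) of each gene in the summed CPM per kb of its family at each day (x axis), for D-type cyclins and INK4 inhibitors. The CCND2 share goes from 48.3% to 30.3% between Day 30 and Day 113, and the CDKN2B share from 42.7% at Day 30 to 9.25% at Day 60.

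Among the CIP/KIP genes, CDKN1A and CDKN1C fell and CDKN1B did not pass any test. CDKN1A (chromosome 6, 36676463 to 36687332, plus strand) encodes p21, an inhibitor that is induced after DNA damage. Per kb it had the highest mean of the 10 genes at each day, with 97.9 ± 7.60 CPM per kb at Day 30 and 61.3 ± 14.3 at Day 113 (SD, n = 4), although its Day 113 wells overlapped those of CCND1. In CPM its wells held 271, 328, 296 and 299 at Day 30, 304, 289 and 266 at Day 60 and 126, 226, 186 and 209 at Day 113. All Day 113 wells were below all others, and replicate 1 was the lowest of them. CDKN1A fell by 0.62 ± 0.15 (SE; adjusted p 0.0073) after Day 60 and by 0.68 ± 0.14 (SE; adjusted p 0.0014) over the whole course. The difference between the 2 intervals did not pass (-0.56 ± 0.26, SE; adjusted p 0.21). Of CDKN1A exon bases, 4.79% lie opposite DINOL, which is not among the genes counted.

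CDKN1C (chromosome 11, 2883218 to 2885775, minus strand) encodes p57 and is an imprinted gene, expressed mainly from the maternal copy. It showed the largest decrease of the 10 genes from Day 30 to Day 113. The wells held 13.4, 10.3, 12.7 and 7.70 CPM at Day 30, 8.55, 4.97 and 5.68 CPM at Day 60 and 2.19, 1.91, 1.43 and 1.48 CPM at Day 113. Day 60 overlapped Day 30 in its highest well, and Day 113 lay below both. CDKN1C fell by 2.65 ± 0.26 (SE) from Day 30 to Day 113, 6.27-fold (adjusted p 1.5e-06), and by 1.86 ± 0.27 (SE; adjusted p 1.7e-04) after Day 60. The value for the first interval was -0.79 ± 0.26 (SE; adjusted p 0.071). That p passed 0.05 with DESeq2 (0.046), in a fit of those 2 days alone (0.043), without Day 30 replicate 4 (0.041) and without Day 60 replicate 1 (0.048), and it ran from 0.019 to 0.24 over all alternatives.

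The imprinted domain around CDKN1C holds KCNQ1OT1, a long noncoding RNA from the paternal copy that silences neighbours there. KCNQ1OT1 fell by 1.39 on the log2 scale after Day 60 (adjusted p 8.9e-04), from a mean of 58.5 to 22.3 CPM, in the same interval as CDKN1C. Of the other neighbours fixed for this locus, SLC22A18 fell by 1.04 after Day 60 (adjusted p 0.024), and KCNQ1 rose by 0.80 before it (adjusted p 1.3e-04). IGF2, a fetal growth factor gene, fell by 0.68 in the first interval (adjusted p 0.013) and did not pass over the whole course (-0.26, adjusted p 0.20), and H19 was below 1 CPM in mean at every day. CDKN1C therefore fell with one part of its neighbourhood and not with all of it.

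CDKN1B (chromosome 12, 12717368 to 12722369, plus strand) encodes p27, which accumulates in resting cells. Its wells held 67.5, 65.0, 57.6 and 66.2 CPM at Day 30, 76.8, 76.5 and 65.2 CPM at Day 60 and 63.6, 51.0, 59.7 and 66.5 CPM at Day 113. The days overlapped in each comparison. Its log2 fold changes were 0.18 ± 0.11, -0.28 ± 0.11 and -0.09 ± 0.10 (SE; Day 60 with Day 30, Day 113 with Day 60 and Day 113 with Day 30; adjusted p 0.35, 0.080 and 0.54). With upper-quartile scaling the decrease after Day 60 passed (adjusted p 0.034; 0.034 to 0.23 over all alternatives).

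**Figure D4:**
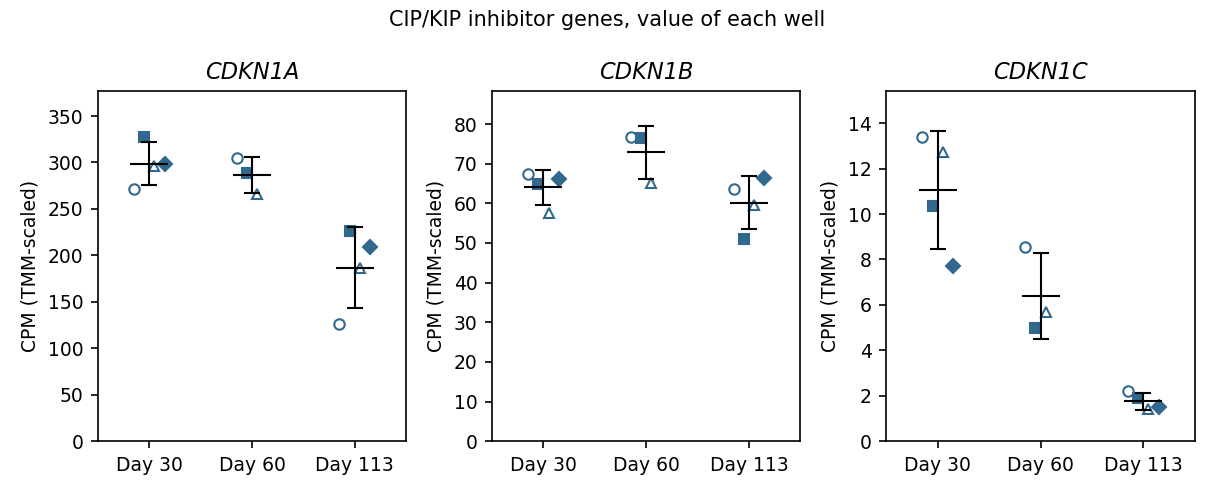
CPM of the 3 CIP/KIP genes (y axis, starting at 0, 1 panel per gene) by day (x axis); symbols are wells, with 1 shape per replicate number, and black bars are the mean with its SD. At Day 113 the CDKN1A wells (126 to 226 CPM) and the CDKN1C wells (1.43 to 2.19 CPM) lie below all earlier wells, and CDKN1B overlaps between days.

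The INK4 genes changed most by Day 60, with all 4 past the test and in opposite directions. CDKN2B and CDKN2A, neighbours on chromosome 9, fell, and CDKN2C and CDKN2D, on chromosomes 1 and 19, rose. The 250 bases before an annotated start of each gene (RefSeq, GRCh38.p14) are shown here because the 4 genes encode proteins of the same kind and moved apart. Capitals mark GC boxes, the letters GGGCGG on either strand, which are a binding motif of SP/KLF factors.
CDKN2A, chr9:21974858-21975107, minus strand: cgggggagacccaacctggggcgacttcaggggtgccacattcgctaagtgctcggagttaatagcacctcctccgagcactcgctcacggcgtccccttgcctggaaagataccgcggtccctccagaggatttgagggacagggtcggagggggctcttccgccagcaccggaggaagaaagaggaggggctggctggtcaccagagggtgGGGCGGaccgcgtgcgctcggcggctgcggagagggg
CDKN2B, chr9:22009306-22009555, minus strand: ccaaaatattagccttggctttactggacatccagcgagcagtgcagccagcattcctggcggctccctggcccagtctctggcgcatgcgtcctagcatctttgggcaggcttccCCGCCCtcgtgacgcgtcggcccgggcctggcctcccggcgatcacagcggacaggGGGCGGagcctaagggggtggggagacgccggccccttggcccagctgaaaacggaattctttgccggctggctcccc
CDKN2C, chr1:50968456-50968705, plus strand: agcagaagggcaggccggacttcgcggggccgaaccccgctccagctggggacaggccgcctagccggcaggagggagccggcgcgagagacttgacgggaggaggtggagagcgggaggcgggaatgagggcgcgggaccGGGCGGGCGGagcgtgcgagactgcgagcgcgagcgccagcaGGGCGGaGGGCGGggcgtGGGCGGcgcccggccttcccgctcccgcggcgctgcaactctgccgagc
CDKN2D, chr19:10568980-10569229, minus strand: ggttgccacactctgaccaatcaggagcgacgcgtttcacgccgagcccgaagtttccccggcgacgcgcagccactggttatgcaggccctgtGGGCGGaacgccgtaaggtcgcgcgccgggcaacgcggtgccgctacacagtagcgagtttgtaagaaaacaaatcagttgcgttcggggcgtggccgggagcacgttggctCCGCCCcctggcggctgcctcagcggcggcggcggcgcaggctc

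Of the 10 genes, 7 had windows in the promoter table, and CDKN2A and CDKN2C had more than 1 start in it, so the windows shown are 1 of several for them. The CDKN2A, CDKN2B, CDKN2C and CDKN2D windows above hold 1, 2, 5 and 2 GC boxes, overlapping matches counted, where 42.6% of 35116 promoter windows of the same length hold at least 1. None of the 4 holds TATAAA, which 10.7% of all windows hold on either strand, and CDKN2D alone holds CCAAT (32.0% of all windows). No window of the 7 genes holds TTTCCCGC, TTTCGCGC, TTTGCCGC or TTTGGCGC, the letters of the common E2F motif on either strand, which 2.79% of all windows hold. The 4 windows are 66.4% to 77.2% G or C, above the median of 58.0% over all windows. The other CDKN2A window, at 66.8% G or C, holds no GC box. The other 2 CDKN2C windows, at 45.6% and 48.8%, lie below that median and hold 0 and 1 GC boxes, so the values depend on the start chosen. These counts are descriptions only.

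CDKN2B (chromosome 9, 22002903 to 22009313, minus strand) encodes p15, an inhibitor known as a target of TGF-beta signalling. The wells held 29.7, 37.96, 36.9 and 24.6 CPM at Day 30, 10.2, 9.29 and 5.11 CPM at Day 60 and 6.15, 14.7, 8.24 and 7.18 CPM at Day 113. Every Day 30 well was above every later one, and the 2 later days overlapped. CDKN2B fell by 1.98 ± 0.30 (SE), 3.94-fold, by Day 60 (adjusted p 5.3e-04). After Day 60 the value was 0.14 ± 0.29 (SE; adjusted p 0.77), and over the whole course it fell by 1.83 ± 0.26 (SE; adjusted p 6.9e-05). The 2 intervals differed by 2.12 ± 0.53 (SE; adjusted p 0.020), a call lost without Day 60 replicate 3 (adjusted p 0.12; 9.5e-04 to 0.12 over all alternatives).

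CDKN2A (chromosome 9, 21967752 to 21995324, minus strand) encodes both p16, the INK4 inhibitor, and p14ARF, a protein from another reading frame. A count per gene cannot tell the 2 transcripts apart. The wells held 3.86, 6.84, 9.28 and 4.29 CPM at Day 30, 1.18, 3.57 and 1.77 CPM at Day 60 and 5.05, 9.04, 6.10 and 3.65 CPM at Day 113. Day 60 was below both other days, and the wells of a day differed 2.41-fold to 3.03-fold from lowest to highest. CDKN2A fell by 1.49 ± 0.42 (SE; adjusted p 0.033) and then rose by 1.46 ± 0.42 (SE; adjusted p 0.019), which left a difference of -0.03 ± 0.37 (SE; adjusted p 0.97) between Day 113 and Day 30. The difference between the 2 intervals was 2.95 ± 0.78 (SE; adjusted p 0.027).

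These CDKN2A calls also depended on the wells kept. The decrease was lost without Day 30 replicate 2 or 3 or Day 60 replicate 1 or 3 (adjusted p 0.085, 0.11, 0.15 and 0.14; 0.0026 to 0.15 over all alternatives). The rise was lost without Day 60 replicate 1 or 3 or Day 113 replicate 2 (0.091, 0.078 and 0.053; 0.0015 to 0.091), and the difference between intervals without Day 30 replicate 2 or Day 60 replicate 1 or 3 (0.051, 0.14 and 0.13; 0.0019 to 0.14). Of CDKN2A exon bases, 7.88% lie opposite CDKN2B-AS1, which held 116 counts in all against 1624 for CDKN2A.

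Markers of other cell types also moved in the interval in which CDKN2A and CDKN2B fell. Of 9 endoderm and epithelial markers, 8 fell by Day 60 and none rose, where 5.91% of all genes fell and 4.39% rose. Their summed level went from 587 to 1511 CPM at Day 30 down to 70.9 to 83.0 CPM at Day 60. The summed fibroblast markers went from 3357 to 7713 CPM down to 2074 to 3575 CPM, with 3 of 9 lower and 1 higher, and these ranges overlapped. Collagen RNA made up most of this sum. At Day 30 COL3A1, COL1A1 and COL1A2 had means of 2221, 1681 and 1414 CPM, and no other marker of the list exceeded 144 CPM. Comparisons of wells by this sum are therefore mainly of collagen RNA. Within Day 30, replicates 2 and 3 had the highest CDKN2A and CDKN2B and also the highest summed fibroblast markers (7713 and 6800 CPM). The endoderm and epithelial sums of the Day 30 wells were 1328, 1511, 1182 and 587 CPM (replicates 1 to 4). Replicate 2 was highest and replicate 4 lowest, as for CDKN2B. Replicate 1, lowest in CDKN2A, was above replicate 3, highest in CDKN2A. The fibroblast sums of the later days did not line up as at Day 30. Day 60 replicate 1 had the highest fibroblast sum of its day (3575 CPM) and the lowest CDKN2A. Day 113 replicate 1 had the highest sum (13100 CPM) and the lowest CDKN2B, while replicate 2, highest in both genes, had a sum of 6791 CPM. The part of these cells in the CDKN2A and CDKN2B values was not tested. After Day 60, when CDKN2A rose and CCND2, CDKN1A, CDKN1C and CDKN2D fell, 6 of 9 fibroblast markers rose and 1 fell, and all 9 endothelial markers rose. Of all genes, 12.9% rose and 11.1% fell in that interval. The part of these cell types in the later changes was not tested either. By Day 60, MTAP, next to CDKN2A, fell by 0.60 on the log2 scale (adjusted p 0.019), and DMRTA1, on the other side of CDKN2B, was at -0.53 (adjusted p 0.14).

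CDKN2C (chromosome 1, 50960745 to 50974634, plus strand) encodes p18. The wells held 4.97, 7.67, 5.27 and 3.85 CPM at Day 30, 15.4, 14.5 and 14.04 CPM at Day 60 and 17.4, 18.4, 14.6 and 25.2 CPM at Day 113. All later wells were above all Day 30 wells, and the 2 later days overlapped. CDKN2C rose by 1.43 ± 0.22 (SE), 2.69-fold, by Day 60 (adjusted p 6.6e-04) and by 1.79 ± 0.21 (SE), 3.47-fold, over the whole course (adjusted p 9.4e-06). The step after Day 60, 0.37 ± 0.22 (SE), did not pass (adjusted p 0.25).

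CDKN2D (chromosome 19, 10566460 to 10568979, minus strand) encodes p19. It was at 11.5, 13.5, 8.95 and 11.5 CPM at Day 30, 25.1, 22.6 and 17.5 CPM at Day 60 and 13.7, 16.0, 11.3 and 13.3 CPM at Day 113. Only the Day 60 wells stood apart, above those of both other days. CDKN2D rose by 0.93 ± 0.18 (SE), 1.91-fold, by Day 60 (adjusted p 0.0030) and fell by 0.68 ± 0.18 (SE) after it (adjusted p 0.011), with a difference between intervals of -1.62 ± 0.30 (SE; adjusted p 0.0041). The decrease was lost without Day 60 replicate 1 (adjusted p 0.062; 0.0023 to 0.062 over all alternatives). From Day 30 to Day 113 its value was 0.25 ± 0.17 (SE; adjusted p 0.27).

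**Figure D5:**
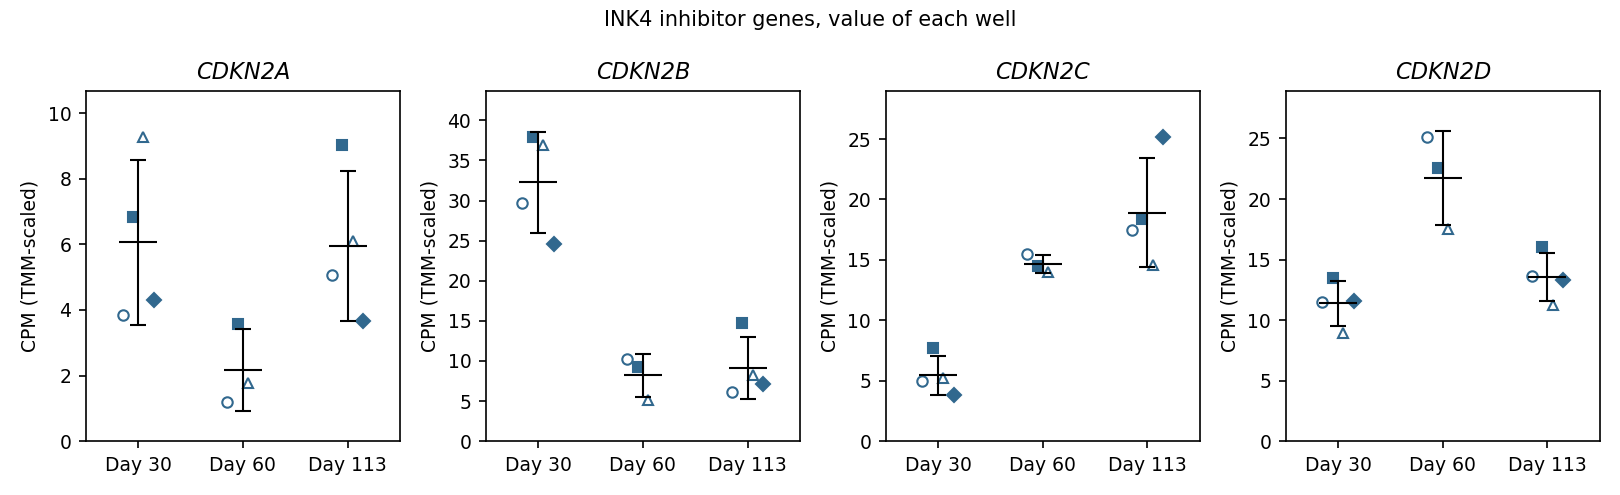
CPM of the 4 INK4 genes (y axis, starting at 0, 1 panel per gene) by day (x axis); symbols are wells, with 1 shape per replicate number, and black bars are the mean with its SD. From Day 30 to Day 60 the mean of CDKN2B goes from 32.3 to 8.20 CPM and that of CDKN2C from 5.44 to 14.7 CPM, while CDKN2A is lowest and CDKN2D highest at Day 60.

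Per kb of exon, the summed INK4 level overlapped between days, at 15.9 to 22.2 CPM per kb at Day 30, 17.6 to 24.2 at Day 60 and 15.3 to 21.9 at Day 113. Its make-up differed between Day 30 and Day 60, where the shares of none of the 4 genes overlapped. Other days overlapped in part: CDKN2B between Day 60 and Day 113, and CDKN2A and CDKN2D between Day 30 and Day 113. CDKN2B was 42.7% ± 4.26 of the sum at Day 30 (SD, n = 4), 9.25% ± 1.81 at Day 60 (SD, n = 3) and 12.0% ± 3.61 at Day 113 (SD, n = 4). CDKN2C was 8.69% ± 1.28, 20.9% ± 2.75 and 31.2% ± 6.24 at these days. CDKN2D was the largest part at Day 60, with 67.5% ± 1.52 (SD, n = 3), and stood at 41.2% ± 7.08 at Day 30 and 49.3% ± 2.92 at Day 113 (SD, n = 4). CDKN2A stayed under the other 3 in mean, with 7.47% ± 2.75, 2.37% ± 1.27 and 7.50% ± 2.36. Within each library, CDKN2C held 0.143 to 0.202 of the CDKN2B count at Day 30 and 1.25 to 3.51 times that count at Day 113.

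Across all 10 genes, the order per kb at Day 30 was CDKN1A, CCND2, CCND1, CDKN1B, CDKN2B, CDKN2D, CDKN1C, CCND3, CDKN2C and CDKN2A. The neighbours CCND2 and CCND1, CDKN2B and CDKN2D, CDKN1C and CCND3, and CDKN2C and CDKN2A overlapped in that order. At Day 113 the order was CDKN1A, CCND1, CCND2, CDKN1B, CDKN2D, CCND3, CDKN2C, CDKN2B, CDKN2A and CDKN1C. There, the pairs with no overlap were CCND1 and CCND2, CDKN1B and CDKN2D, and CDKN2C and CDKN2B. CDKN1C went from the seventh to the last place, and CDKN2C from the ninth to the seventh.

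The kinases and partner cyclins of the G1 to S step were fixed as a list of 13, of which 12 were in the table. From Day 30 to Day 113, 1 rose and 3 fell, with a median of -0.19, and the 4 called of 12 are close to the 34.5% of all genes called. CDK4, CDK6 and CDK2, the kinases that these cyclins and inhibitors bind, did not pass (-0.02, -0.22 and 0.11; adjusted p 0.92, 0.11 and 0.43), although CDK2 rose by 0.43 after Day 60 (adjusted p 0.0063). CCNE2, an E-type cyclin that drives CDK2, rose by 1.80 (adjusted p 0.0089) to a mean of 3.08 CPM, and CCNE1 did not pass (-0.18, adjusted p 0.70). SKP2, which marks p27 for destruction, fell by 1.23 (adjusted p 2.5e-05), and CKS2 and CCNA2 fell by 1.01 and 0.65 (adjusted p 2.8e-04 and 0.013). CCNA2 first rose by 0.79 by Day 60 (adjusted p 0.017) and then fell by 1.43 (adjusted p 1.3e-04). Its Day 30 and Day 113 wells overlapped.

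Of 17 genes of the RB and E2F group, 6 rose and 3 fell from Day 30 to Day 113, with a median of 0.08, where 17.3% of all genes rose and 17.2% fell. E2F1, an activator of S-phase genes, rose by 1.65 (adjusted p 6.9e-06), from a mean of 13.4 to 42.0 CPM, with most of the step after Day 60 (1.46, adjusted p 1.5e-04). E2F7, a repressor of the family, rose by 1.43 (adjusted p 3.3e-05), and RBL1, which encodes the pocket protein p107, rose by 1.09 (adjusted p 7.6e-04). RB1 and RBL2 did not pass (0.29 and 0.08, adjusted p 0.066 and 0.55). E2F2 and E2F4 rose by 1.32 and 0.41 (adjusted p 0.025 and 0.023), and E2F3 and E2F5 fell by 0.49 and 0.51 (adjusted p 0.0039 and 0.037). For both E2F2 and E2F4 the Day 30 and Day 113 wells overlapped, and the E2F2 mean was only 4.86 CPM at Day 113. E2F6 and E2F8 did not pass (-0.11 and -0.12, adjusted p 0.51 and 0.63).

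Of 13 genes for the turnover of cyclins and inhibitors, 4 rose and none fell over the whole course, with a median of 0.11, beside 17.3% and 17.2% of all genes. PCNA, the replication clamp that also guides p21 to its ubiquitin ligase, rose by 1.25 (adjusted p 1.3e-05). FBXW7, which targets cyclin E, rose by 1.14 (adjusted p 1.3e-05), and CUL1, a scaffold of the same kind of ligase, rose by 0.40 (adjusted p 0.0015). Of 25 measured regulators of transcription, 8 rose and 8 fell over the whole course, against the same 17.3% and 17.2%. MYCN, a driver of growth in fetal cells, fell by 3.19 (adjusted p 3.6e-08), LEF1, a Wnt effector, fell by 1.63 (adjusted p 1.2e-06), and ETS1 rose by 2.30 (adjusted p 4.8e-06). ETS1 is also made by endothelial cells, and all 9 endothelial markers rose over the same span, which was not tested as a part of its value.

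Genes of S phase and mitosis split by interval. By Day 60, 3 of 20 rose and none fell, with a median of 0.35, where 4.39% of all genes rose and 5.91% fell. In the later interval those shares were 12.9% and 11.1%. After Day 60, 6 rose, among them CDC6 (1.40, adjusted p 3.8e-04), a loader of the replication helicase, and 10 fell, among them PLK1 (-1.77, adjusted p 7.7e-05) and CCNB1 (-1.58, adjusted p 6.1e-05), both needed for mitosis. The 6 that rose were CDC6 and 5 helicase subunits (MCM3 to MCM7), and the 10 that fell act in mitosis or chromosome handling. The remaining S-phase genes of the list, MCM2, RRM2, CDT1 and TYMS, did not pass in that interval. Their values were 0.37, 0.28, -0.42 and -0.24 (adjusted p 0.064, 0.23, 0.071 and 0.29), so the S-phase genes did not all rise. The CDT1 wells of Day 113 lay below those of Day 60 with no overlap. CCND2, CDKN1A, CDKN1C and CDKN2D fell in that same interval.

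By likeness of log2 CPM over the 11 libraries, the closest of 11945 other genes with a mean of at least 5 CPM were EEF1A2 and TOMM20 for CCND2 (Pearson's r 0.986 and 0.985). They were TPRG1L and TTC1 for CCND3 (0.990 and 0.954), ZNF467 and MORC2 for CDKN1C (0.988 and 0.983) and RAP1GAP and RPLP0 for CDKN1A (0.962 and 0.958). For CDKN2B they were MEIS3 and MKNK2 (0.987 and 0.982), and for CDKN2C ARHGEF3 and SERTM2 (0.973 and 0.971). CDKN2D was nearest to RAPGEFL1 (0.921), CDKN1B to PAG1 (0.931) and CDKN2A to CHST14 (0.956), and CCND1 had the lowest best match, IRF1 (0.818). Among the members, the highest r was 0.955, between CCND2 and CDKN1C, and the lowest was -0.818, between CDKN2B and CDKN2C. The 11 libraries share 3 days, so any 2 genes that differ between days correlate, and these values are descriptions.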

How the data were processed

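Libraries of poly(A) RNA from the cardiomyocytes were sequenced as paired-end 150-bp reads, per the labels' protocols. The authors deposited whole-number read counts for 19990 genes in 11 libraries, not normalized. STAR 2.5.3a, featureCounts 2.0.3 and build hg38 are named in the submitters' processing notes, and annotation and strand setting are not given in the sources used here. The deposited TPM table was not used, because counts divided by TPM gave different gene lengths in different libraries for the same gene. Genes were tested with edgeR 4.0.16 (glmQLFit and glmQLFTest, R 4.3.3), with TMM scaling, all 11 libraries and day as the only factor. filterByExpr with a minimum count of 10 removed 0 genes. P-values were adjusted by Benjamini-Hochberg over 19990 genes. Standard errors were derived from each log2 fold change and its F statistic (size over root F). Wells of a day differed by more than sampling noise (chi-square per degree of freedom 11.1 to 80.8) and were counted separately. The test was checked on simulated data drawn from these libraries, with 200 genes changed between Day 30 and Day 113. It recovered 53% of the 2-fold and 71% of the 4-fold changes, with 7 false calls. A gene that did not pass may therefore still have changed. Alternatives were RLE and upper-quartile scaling, DESeq2 1.42.0, limma-voom 3.58.1, other filters, robust dispersions, fits of 2 days, a replicate block, an adjusted p of 0.01 and leaving out each library. Gene positions are from RefSeq (GRCh38.p14) and exon lengths and overlaps from GENCODE 29. No stretch of 100 bases was shared between transcripts of 2 of the 10 genes. The 10 genes and all lists were chosen with earlier results of these data known. All 10 are named, and of each list only these could be: the kinases, pocket proteins, E2F and cyclin E genes, locus neighbours and up to 3 genes with the largest change from Day 30 to Day 113 (called, and at least 5 CPM in the higher group). MCM2 to MCM7, CDT1, RRM2, TYMS and the collagen genes are named after their values were seen. Some gene and marker lists are not reported here.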

Additional observations from a re-analysis of the deposited data

Results flagged for a closer look

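Of 20 groups of 4 wells among the 10 genes, 1 held a well far from the others: CCND3 was at 27.8 CPM in Day 30 replicate 2, against 20.3 to 20.9 CPM in the other 3 wells, a gap of 0.920 of the group's range. Chance flags about 1 in 20 such groups.

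The change from Day 60 to Day 113 differed from the change from Day 30 to Day 60 for 4 of the 10 genes in edgeR's test of that difference, against 9.34% of all genes. On the log2 scale the difference was -0.78 for CCND2 (adjusted p 0.0069), 2.95 for CDKN2A (0.027), 2.12 for CDKN2B (0.020) and -1.62 for CDKN2D (0.0041). The 2 intervals share the Day 60 wells, so a high or low Day 60 value moves both. The later interval is also the longer, and changes per day were not compared.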

How the results depend on the processing

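The 6 members called from Day 30 to Day 113 kept their call and direction under each alternative run. At an adjusted p of 0.01 the members called were 3 by Day 60, 3 after it and 2 for the difference between intervals, and the genes called in all were 937, 2545, 4552 (Day 113 with Day 30), 4800 (any change) and 618 (difference between intervals). With 1 library left out, the members called ran from 3 to 5 by Day 60, 3 to 5 after it and 2 to 5 for the difference between intervals, and all genes called from 1220 to 2618, 3317 to 4735 and 643 to 2221. Upper-quartile scaling moved the median of all genes for the difference between intervals by -0.11 on the log2 scale. Values near 0 changed sign: CCND1 from Day 30 to Day 113 was -0.0086 with upper-quartile scaling, and with 1 library left out ran from -0.043 to 0.086 (after Day 60, -0.12 to 0.0049). On the same basis CDKN1A by Day 60 ran from -0.10 to 0.015, CDKN2A from Day 30 to Day 113 from -0.30 to 0.25 and CDKN2B after Day 60 from -0.19 to 0.33. CDKN2C passed for the difference between intervals without Day 30 replicate 2 (adjusted p 0.032) or Day 113 replicate 4 (0.043; 0.032 to 0.24 over all alternatives), and CDKN2A for any change did not pass without Day 60 replicate 1 (0.11) or 3 (0.094; 0.0013 to 0.11). Removing 1 library leaves fewer wells, and no other cause of these moves was tested.

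Replicate numbers name wells only, and same-numbered wells did not deviate together by more than r = 0.0761 (0.0227 to 0.0761 over 10 pairs, median 0.045). Wells of other numbers ran from -0.078 to 0.069 (median -0.023). The values were small, and no pairing was used in the main fit. In 17 of 20 comparisons, which read the 10 pairs from both ends, a well correlated best with its own number on the other day. The data thus hint at structure shared by number, and its source was not tested. With the replicate block, 2474, 4954, 7143, 7775 and 2366 genes were called by Day 60, after it, over the whole course, for any change and for the difference between intervals, and 6, 7, 6, 8 and 4 members. The members added were CDKN1C by Day 60, and CCND3 and CDKN1B after it (adjusted p 0.019, 0.038 and 0.045).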
